A study of Mus musculus with 2 samples.

Results

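Fibroblasts of the mouse large intestine that carry RNA of Pi16, the gene of peptidase inhibitor 16, are described here in 2 droplet single-cell libraries. A member is a cell barcode without any UMI (unique molecular identifier, 1 captured transcript) of the leukocyte gene Ptprc, with at least 2 UMIs of Pi16, and with at least as many of Pi16 as of Efhd1, Ackr2 and Ildr2 together, the genes of a second adventitial group. The members were thus selected on their raw UMIs of Pi16, Ptprc, Efhd1, Ackr2 and Ildr2, and values of these genes are given as description. Barcodes first had to hold at least 1000 UMIs, at least 500 genes and at most 10% mitochondrially encoded UMIs. The rule found 5989 members among 27768 kept barcodes: 1992 of 12702 in the ff library (15.7%, exact 95% binomial interval 15.1 to 16.3) and 3997 of 15066 in the GF library (26.5%, 25.8 to 27.2). All intervals given here cover counting error only.

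The series sorted mesenchymal cells from the large bowel of adult mice, taking cells with the surface protein gp38 (podoplanin, found on fibroblasts) and without CD45, EpCAM or CD31, which mark leukocytes, epithelium and endothelium. Its title concerns the chemokine CXCL12 from Foxl1-high mesenchymal cells and tumours of Apc Min/+ mice, but no label places that allele in these cells. The ff library came from C57BL/6 mice and the GF library from Balb/c mice. What ff stands for is not given, and germ-free status is carried only by the name GF and a mention in the design text, so strain, housing and library cannot be told apart. The number of mice behind each library is not stated, and with 1 library per group there is no replicate spread and no test between groups. The difference in share of members has no replicate check either. After each barcode was thinned to 2000 UMIs the rule found 8.08% of ff and 14.9% of GF barcodes, which is lower by over 1.5 times in each library.

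Fibroblasts with Pi16, the stem cell antigen Cd34 and the dipeptidyl peptidase Dpp4 lie in the connective tissue sheath of vessels, the adventitia, and in the submucosa and fascia of many organs. They are known for making microfibrils, hyaluronan and complement, and in several tissues they act as a reserve from which other fibroblasts arise. In the gut wall they are set apart from the lamina propria fibroblasts between the crypts and from the Foxl1-high cells under the epithelium, which supply BMP ligands and non-canonical WNT ligands.

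The kept barcodes held 118276886 UMIs in ff and 102879042 in GF, of which the members held 19673890 and 32456267. Median depth was 9477.5 UMIs per member against 8908 in the other kept ff barcodes, and 7655 against 6087 in GF. A set's level is its summed UMIs of a gene per 1000000 of its UMIs (CPM). The other kept barcodes numbered 10710 in ff and 11069 in GF. Of these, 10290 and 8982 had no Ptprc and at least 10 UMIs of the collagen genes Col1a1, Col1a2 and Col3a1 together. The other kept barcodes also included 84 lymphocyte barcodes in ff and 1074 in GF (Ptprc together with CD3 or CD79 genes). Their make-up thus differed between the libraries. The same barcode sequence occurred in both libraries 55 times, and 1 of these was a member in each.

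The edge of the rule was populated. Pi16 stood at exactly 2 UMIs in 313 ff members (15.7%) and 749 GF members (18.7%), and at 10 or more in 677 (34.0%) and 1235 (30.9%). Just outside, 839 ff and 1395 GF barcodes without Ptprc held exactly 1 Pi16 UMI. The requirement on Efhd1, Ackr2 and Ildr2 left out 60 ff and 169 GF barcodes, which count below among the Efhd1/Ackr2/Ildr2-positive barcodes. Yet 51.6% of ff members and 41.4% of GF members still held at least 1 UMI of these genes.

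The members held RNA of the other adventitial markers, to unequal degree. Pi16 itself (ENSMUSG00000024011, chr17:29317680-29330593, plus strand, positions in GENCODE vM21 on GRCm38, the assembly of mm10) was summed to 1086 CPM in ff members (exact Poisson interval 1072 to 1101) and 1239 CPM in GF members (1227 to 1252). Outside the members it was 11.3 and 43.5 CPM, a gap that the rule itself made. Cd34 (ENSMUSG00000016494, chr1:194938819-194961279, plus strand) was 1069 CPM in ff members (1055 to 1084) against 503 CPM in the other kept barcodes, and 887 CPM (877 to 897) against 411 CPM in GF. At least 1 Cd34 UMI was found in 99.1% of ff and 97.4% of GF members.

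Cilp (ENSMUSG00000042254, chr9:65265180-65280605, plus strand), an extracellular matrix protein named for the intermediate layer of cartilage, was 311 CPM in ff members (304 to 319) against 62.3 CPM outside, and 274 CPM (269 to 280) against 43.3 CPM in GF. Npy1r (ENSMUSG00000036437, chr8:66697192-66706792, plus strand), a receptor for neuropeptide Y released by sympathetic nerves, was 89.5 CPM (85.4 to 93.8) against 6.76 CPM in ff and 111 CPM (108 to 115) against 15.9 CPM in GF. Dpp4 (ENSMUSG00000035000, chr2:62330073-62412231, minus strand) was 44.8 CPM (41.9 to 47.8) against 4.54 CPM in ff and 45.9 CPM (43.6 to 48.3) against 10.2 CPM in GF. All 5 markers thus stood higher in the members of both libraries, as the log2 ratios to the other kept barcodes show: 1.09 and 1.11 for Cd34, 3.05 and 2.07 for Dpp4, 2.30 and 2.64 for Cilp, and 3.54 and 2.73 for Npy1r, in ff and GF.

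Few barcodes held the whole set. All 5 markers were detected together in 70 ff members (3.51%) and 137 GF members (3.43%), while 22.8% and 36.3% held none of Dpp4, Cilp and Npy1r. With each barcode thinned to 2000 UMIs, which left out 23 ff and 63 GF members that were shallower, Dpp4 was found in 8.38% of ff and 7.09% of GF members (25.8% and 20.5% before thinning). Lymphocyte barcodes, which were shallower with medians of 4598.5 and 2820.5 UMIs, gave 4.76% (exact interval 1.31 to 11.7, 84 barcodes) and 5.68% for Dpp4, which T cells also carry as CD26, and the other kept barcodes gave 0.896% and 1.85%. Thinned shares of Npy1r were 13.3% and 15.8% in members against 0% and 0.841% in lymphocyte barcodes. For Cilp they were 31.2% and 26.2% against 0% and 1.68%. In the Efhd1/Ackr2/Ildr2-positive barcodes, thinned shares in ff and GF were 11.9% and 19.0% for Dpp4. They were 8.30% and 22.9% for Npy1r, and 10.8% and 6.86% for Cilp. Dpp4 was thus found more often there than in members of both libraries. The intervals overlapped in ff (7.19 to 9.69 in members, 8.34 to 16.3 there).

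**Figure D1:**
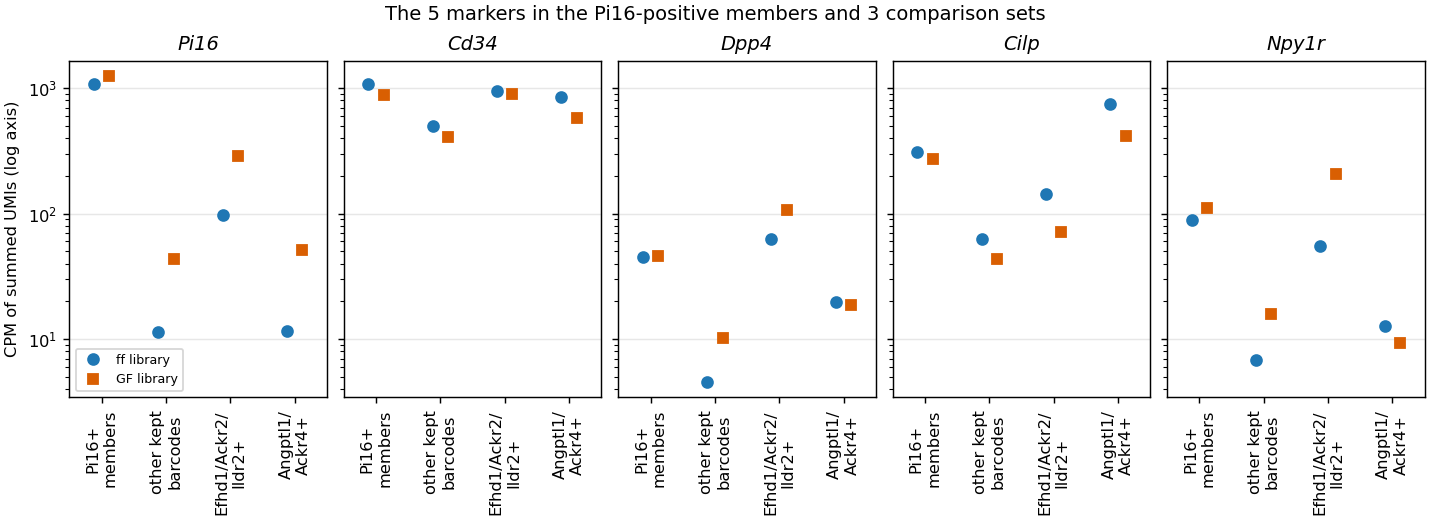
CPM of summed UMIs (log axis) of Pi16, Cd34, Dpp4, Cilp and Npy1r in the Pi16-positive members, the other kept barcodes, and the Efhd1/Ackr2/Ildr2-positive and Angptl1/Ackr4-positive barcodes, with 1 point per library. All 5 genes are higher in members than in the other kept barcodes of both libraries, Cilp is highest in the Angptl1/Ackr4-positive barcodes (744 CPM in ff, 419 CPM in GF), and Npy1r in GF is highest in the Efhd1/Ackr2/Ildr2-positive barcodes (207 CPM).

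Across 13772 genes with at least 50 UMIs in each library, differences between members and the other kept barcodes were counted where the log2 ratio, taken after adding 1 CPM, reached 1, that is at least 2-fold; the added CPM understates ratios of low genes. In ff 343 genes (2.49%) were higher and 931 (6.76%) lower, and in GF 283 (2.05%) and 1084 (7.87%). In both libraries 238 genes (1.73%) were higher and 697 (5.06%) lower, and 1 (0.00726%) went in opposite directions. Membership was set on the same counts, so these values describe the set and test nothing. Over all genes the median log2 ratios were -0.14 (ff) and -0.22 (GF), and scaling by median of ratios brought them to -0.03 and -0.02. With that scaling 416 genes were higher and 817 lower in ff, and 405 higher and 869 lower in GF.

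Among the highest ratios were genes of secreted proteins. Ptx3, a pattern recognition protein that also crosslinks hyaluronan, was 124 CPM in ff members against 16.0 CPM outside and 271 against 39.0 CPM in GF. Pcolce2, which enhances the processing of procollagen, was 795 against 105 CPM in ff and 924 against 160 CPM in GF. Sfrp4, a secreted WNT inhibitor, was 160 against 18.3 CPM and 166 against 28.1 CPM. These are log2 ratios of 2.88 and 2.77 for Ptx3, 2.91 and 2.52 for Pcolce2, and 3.06 and 2.52 for Sfrp4.

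Further genes of this rank were at low summed level, and some were found in few members. Wnt10b, a canonical WNT ligand, was 26.8 CPM in ff members against 2.56 CPM outside and 19.1 against 2.93 CPM in GF. Myoc, the secreted glycoprotein myocilin, was 75.7 against 6.50 CPM and 55.3 against 9.90 CPM. Tac1, the precursor of substance P, was 40.5 against 7.79 CPM and 83.8 against 14.2 CPM, and Ebf2, a transcription factor of preadipocytes, was 22.1 against 2.37 CPM and 11.99 against 1.747 CPM. Lrrn4cl, Ccn5 (a matricellular WNT1-inducible protein), Ces2g (a carboxylesterase), Islr2, Angptl7, Galnt16 (a GalNAc transferase) and Mcf2l (a guanine nucleotide exchange factor) had log2 ratios between 2.24 and 2.89 over both libraries. By thinned shares in GF, Lrrn4cl (29.9% against 44.1%), Islr2, Galnt16 and Mcf2l were found less often in members than in Efhd1/Ackr2/Ildr2-positive barcodes, with intervals apart. Myoc, Ebf2, Ccn5 and Angptl7 were found more often in the members of both libraries.

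Krtdap and Dmkn, neighbouring genes of peptides secreted by the differentiating layers of stratified epithelium, were both among the 20 named genes. Krtdap (chr7:30787896-30791097, plus strand) was 19.1 CPM in ff members (17.2 to 21.1) against 0.527 CPM outside, and 59.2 CPM (56.6 to 61.9) against 8.39 CPM in GF. Dmkn (chr7:30763756-30781063, plus strand) was 5.08 CPM (4.14 to 6.18) against 0.294 CPM in ff and 14.5 CPM (13.2 to 15.9) against 1.12 CPM in GF. The next gene of this cluster, Sbsn (chr7:30751471-30756134, plus strand), chosen after its values were seen, was 30.7 against 12.5 CPM in ff and 34.1 against 8.78 CPM in GF. All of these neighbours stood higher in the members than in the other kept barcodes of both libraries. The log2 ratios were 3.72 and 2.68 for Krtdap, 2.23 and 2.87 for Dmkn and 1.23 and 1.84 for Sbsn. Against the Efhd1/Ackr2/Ildr2-positive barcodes the order turned with the library. Thinned shares of Krtdap were 2.95% in members against 0.722% there in ff, but 7.499% against 11.8% in GF. For Dmkn they were 0.609% against 0% in ff and 1.60% against 2.29% in GF. Of these intervals, only those of Krtdap in GF did not overlap. Summed epithelial markers were 1.88 CPM in ff members and 0.863 CPM in GF members.

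The first 240 bases of a RefSeq promoter window are shown for Dmkn and for Krtdap, because these neighbours stood higher together. Both stretches end upstream of the starts given above, and no window of Sbsn is shown. Each of these stretches holds the AP-1 letters TGANTCA, searched on both strands, here in capitals (RefSeq, GRCm38.p6, 5′ to 3′ on the plus strand, chr7:30763506-30763745 and chr7:30787655-30787894).
Dmkn: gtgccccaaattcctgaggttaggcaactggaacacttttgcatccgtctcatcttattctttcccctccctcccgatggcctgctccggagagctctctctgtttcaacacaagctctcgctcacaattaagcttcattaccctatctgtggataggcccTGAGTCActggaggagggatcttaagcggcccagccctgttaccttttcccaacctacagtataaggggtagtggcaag
Krtdap: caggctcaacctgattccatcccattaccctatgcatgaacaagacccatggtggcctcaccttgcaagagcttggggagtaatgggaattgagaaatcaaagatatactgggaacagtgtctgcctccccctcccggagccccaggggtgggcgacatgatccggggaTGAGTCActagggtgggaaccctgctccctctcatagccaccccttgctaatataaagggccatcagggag
Of 27 promoter windows of 300 bases matched to 16 of the named higher genes, 7 held this motif (25.9%), in Dmkn, Galnt16, Islr2, Krtdap and Npy1r, against 7.81% of all 32851 windows. Some windows of a gene overlap, and the Dmkn windows from 30763506 and from 30763508 hold the same match. A match describes letters and is not a binding site. The motif's share was given for AP-1 among 4 motifs searched, and the Sp/KLF letters CCCGCCC stood at 14.8% against 25.6%, the TATA letters TATAAA at 7.41% against 13.6% and the TEAD letters GGAATG at 18.5% against 14.7%.

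**Figure D2:**
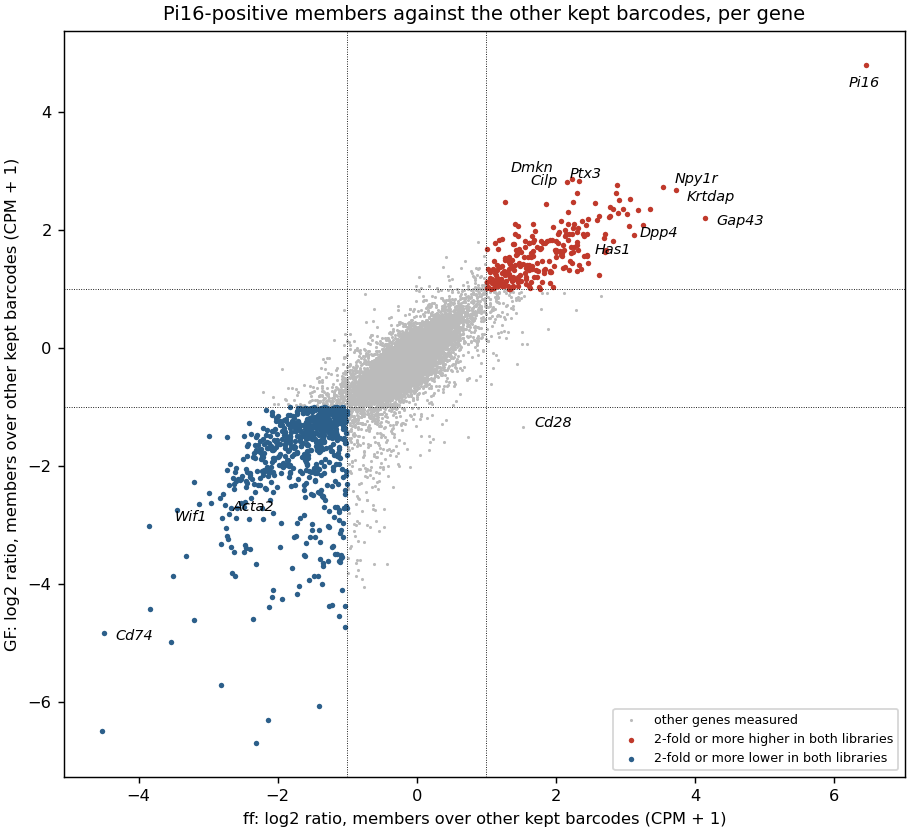
Log2 ratio of members over the other kept barcodes (CPM + 1) in ff (x axis) and GF (y axis), 1 point per gene, for 13772 genes. Red points are the 238 genes at least 2-fold higher in both libraries, blue points the 697 at least 2-fold lower in both, and the dotted lines mark 2-fold.

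The members held the RNAs known for Pi16-positive and Dpp4-positive fibroblasts of other organs: 13 of 20 such genes were at least 2-fold higher in both libraries and none lower in both, against 1.73% of all genes, with medians of 1.35 and 1.24. Mfap5, a microfibril glycoprotein, was 1252 CPM in ff members against 342 CPM outside and 1565 against 445 CPM in GF. Anxa3, an annexin, was 274 against 60.3 CPM and 250 against 56.9 CPM, and Cd248, the surface protein endosialin, was 647 against 249 CPM and 473 against 181 CPM. Not past 2-fold in both were Cd44, Thy1, Tppp3, Wnt2, Opcml, Ly6a and Procr, and Procr, a receptor of protein C used as a marker of such cells elsewhere, was 83.3 against 292 CPM in ff and 84.1 against 134 CPM in GF. Against only the other collagen-bearing barcodes without Ptprc, 13 of the 20 again passed and none was lower in both. Summed over the list, levels were 11521 CPM in ff members and 10735 CPM in the ff Efhd1/Ackr2/Ildr2-positive barcodes. In GF they were 12525 and 16027 CPM, so the summed level was not particular to the members.

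Matrix genes differed gene by gene, and most were within 2-fold in both libraries. Of 20 elastic fibre and microfibril genes, 4 were higher in both libraries (Fbn1, Mfap5, Fbln2 and Emilin2) and 1 lower (Fbn2). Over all genes, 1.73% were higher and 5.06% lower in both. Of 9 fibrillar and fibril-associated collagens only Col14a1, which binds fibril surfaces, was higher (1720 against 479 CPM and 1637 against 475 CPM) and only Col12a1 lower. Col1a1, the main chain of type I collagen, was 2128 against 1680 CPM and 2539 against 1287 CPM. Medians of these lists were 0.10 and 0.30 for elastic fibres and -0.04 and 0.25 for collagens, beside the medians over all genes of -0.14 and -0.22.

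Of the genes of hyaluronan turnover, Has1 and Tnfaip6 stood higher. Has1, a hyaluronan synthase, was 1715 CPM in ff members against 325 CPM outside and 2611 against 695 CPM in GF. Tnfaip6, which transfers heavy chains onto hyaluronan, was 1607 against 483 CPM and 1740 against 528 CPM. These were the only 2 of 8 measured genes of that list past 2-fold in both libraries, where 1.73% of all genes were higher. The list's medians were -0.24 and 0.02. After thinning, Has1 was found in 76.2% of ff and 79.0% of GF members. The shares were 23.7% and 29.97% in the other kept barcodes and 9.52% and 11.3% in lymphocyte barcodes. In the Efhd1/Ackr2/Ildr2-positive barcodes they were 68.2% and 78.8%, near those of the members. In the few Angptl1/Ackr4-positive barcodes they were 53.4% and 38.5%.

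Among 25 small proteoglycans and matrix glycoproteins, Tnxb, Cilp, Pcolce2 and Prg4 were higher and Tnc and Spon1 lower in both libraries. Prg4, the joint lubricant lubricin, was 4.88 against 0.304 CPM in ff and 13.0 against 1.83 CPM in GF. Of 20 metalloproteinase, ADAMTS and inhibitor genes, Adamts5 (an aggrecanase, 446 against 84.6 CPM and 414 against 108 CPM) and Timp1 were higher and Mmp10 lower. For each of these lists the shares over all genes were 1.73% higher and 5.06% lower in both libraries. Of 20 peptidases and protease inhibitors, 6 were higher and none lower in both libraries. They were Pi16 and Dpp4 with Fap (the fibroblast activation protease, 109 against 24.1 CPM and 102 against 25.9 CPM), Serpinf1, Pi15 and Tfpi2; Pi16 entered the rule, so 1 of the 6 was fixed by it.

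Complement and chemokine genes divided by member. C3, the central complement protein, was 2801 CPM in ff members against 563 CPM outside and 2682 against 842 CPM in GF. Cfb and the complement inhibitor Cd55 were also higher in both libraries, and Cd59a was lower. Over all genes, 1.73% were higher and 5.06% lower in both. Il33, an alarmin kept in the nucleus of stromal cells, was 199 against 39.4 CPM and 187 against 44.7 CPM, and Tnfrsf11b, the RANKL decoy receptor, was the other higher gene of 20 cytokine genes, with Il1r1, Il34 and Kitl lower.

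Of 20 chemokine and scavenger receptor genes, 6 were higher in both libraries: the monocyte chemokines Ccl2 and Ccl7 and the scavenger receptors Ackr1, Ackr2, Ackr3 and Ackr4, of which Ackr2 is in the rule. Ccl2 was 1189 against 302 CPM in ff and 1074 against 407 CPM in GF, and Ccl7 was 865 against 192 CPM and 712 against 199 CPM. The 5 lower were Cxcl9, Cxcl12, Cxcl13, Cxcl14 and Cx3cl1, and of all genes 1.73% were higher and 5.06% lower in both. Cxcl12, the chemokine in the series title, was 392.4 CPM in ff members (384 to 401) against 1116 CPM outside and 565 CPM (557 to 573) against 1199 CPM in GF. In members with fewer than 2 UMIs of Adamdec1, a lamina propria gene, Cxcl12 was 269 CPM (ff) and 364 CPM (GF). Ackr3 is a scavenger of CXCL12, and its RNA was 390 against 175 CPM in ff and 352 against 154 CPM in GF, so receptor and ligand stood on opposite sides.

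Part of the BMP ligands were lower in the members. Of 13 BMP, GDF and activin ligands, Bmp2, Bmp3, Bmp4, Bmp5, Bmp7 and Gdf15 were lower in both libraries and none higher in both, and 6 were within 2-fold in both, against 5.06% of all genes lower, with medians of -0.83 and -0.62. Bmp4 was 262 CPM in ff members against 818 CPM outside and 348 against 753 CPM in GF, and Bmp5 was 61.3 against 385 CPM and 34.7 against 176 CPM. In members with fewer than 2 Adamdec1 UMIs, Bmp5 was 11.4 CPM (ff) and 7.07 CPM (GF), and Bmp4 163 and 207 CPM. Among 13 antagonists, Chrdl1 (a chordin-like inhibitor, 45.9 against 10.1 CPM and 47.4 against 15.4 CPM), the glypican Gpc3 (256 against 58.9 CPM and 219 against 85.1 CPM) and Bmper were higher and none lower in both. Grem1, the antagonist of submucosal trophocytes, was not raised, at 113 against 205 CPM in ff and 95.02 against 95.5 CPM in GF. Other trophocyte markers were raised. Of 5 such markers, Grem1 among them, 3 were higher in both libraries (Ackr4, Angptl1 and Cd81) and none lower. Summed over the 5 markers, levels were 956 CPM in ff members against 420 CPM outside and 768 against 310 CPM in GF.

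WNT ligands split in sign. Wnt9a, Wnt10b, Wnt11 and the R-spondin Rspo1 were higher and Wnt4, Wnt5a and Wnt6 lower in both libraries, of 12 measured. Over all genes, 1.73% were higher and 5.06% lower in both. Wnt4 was 43.4 CPM in ff members against 240 CPM outside and 85.5 against 273 CPM in GF, and Wnt5a was 45.4 against 138 CPM and 34.0 against 116 CPM. With fewer than 2 Adamdec1 UMIs, Wnt4 was 12.4 CPM in ff members and 20.1 CPM in GF members. Of 7 secreted WNT inhibitors, Sfrp4 was higher and Wif1, Dkk2 and Dkk3 lower. Rspo3, an R-spondin that sustains crypt stem cells, was 17.0 against 21.0 CPM and 22.4 against 20.5 CPM, within 2-fold.

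Growth factors stood on both sides: Fgf18, Vegfd and Angptl1 were higher and Fgf10, Nrg1, Ereg, Areg, Pdgfc, Hgf, Ntf3 and Gdnf lower in both libraries. Vegfd, a lymphatic growth factor, was 96.1 against 29.4 CPM in ff and 87.2 against 23.6 CPM in GF. Nrg1, an EGF family ligand for the epithelium, was 11.996 against 73.9 CPM and 6.50 against 45.4 CPM, and in members with fewer than 2 Adamdec1 UMIs 0.812 and 0.567 CPM. Of 21 semaphorin and axon guidance genes 4 were higher (Sema3c, Sema3d, Sema3e and Slit3) and 6 lower. Of 21 receptors for peptides and transmitters 3 were higher (Npy1r, the adenosine receptor Adora2b and the natriuretic peptide receptor Npr1) and 7 lower. The shares over all genes, for these lists and the growth factors, were 1.73% higher and 5.06% lower in both libraries.

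Contractile genes were low: 10 of 13 were at least 2-fold lower in both libraries and none higher in both, against 5.06% of all genes lower, with medians of -1.73 and -2.70. Acta2, smooth muscle actin, was 57.3 CPM in ff members against 406 CPM outside and 69.5 against 521 CPM in GF; with fewer than 2 Adamdec1 UMIs it was 22.2 and 40.9 CPM in members. Of 29 transcription factors of fibroblast position, Foxp2, Gata6, Osr2 and Prrx1 were higher and Tcf21, Foxf2 and Foxl1 lower. The share of all genes higher in both libraries was 1.73%. Osr2, an odd-skipped family factor, was 27.1 against 3.13 CPM and 25.5 against 4.66 CPM, and Foxl1 was 2.34 against 16.3 CPM and 3.27 against 18.9 CPM. Of 23 adipogenic and lipid genes only the transcription factors Zfp423 and Ebf2 were higher, and Pparg, Fabp4, Cd36 and Apoe were lower in both.

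Smaller lists each held a few genes apart, beside 1.73% of all genes higher and 5.06% lower in both libraries. Of 21 surface proteins used to sort fibroblasts, Cd34, Ly6c1, Cd81, Cd55 and Cd248 were higher in both libraries and Cd24a, Itga8 and Ncam1 lower; the tetraspanin Cd81, used to sort submucosal trophocytes, was 622 against 155 CPM in ff and 526 against 165 CPM in GF. Of 11 IGF binding protein genes, Igfbp6, which prefers IGF2, was higher (1758 against 554 CPM and 1714 against 397 CPM), and Igfbp3 and the protease Pappa were lower. Of 10 hedgehog response genes, the coreceptors Gas1 and Cdon were higher and the receptor and target Ptch1 lower. Ptch1 was 97.0 against 262 CPM and 125 against 301 CPM. Of 16 basement membrane genes, the linker Nid1 (708 against 269 CPM and 635 against 253 CPM) was higher and Col4a6 lower. The prostaglandin F receptor Ptgfr was higher and Ptger1 and Ptger2 lower among 14 prostaglandin genes.

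Few genes of general cell state differed, while 1.73% of all genes were higher and 5.06% lower in both libraries. No gene of 22 interferon-stimulated genes, 13 heat shock genes, 23 cholesterol synthesis genes or 13 TGF-beta genes was past 2-fold in both libraries. Of 18 immediate-early genes only Myc was higher, and of 20 microbial sensing genes Lbp, which hands bacterial lipopolysaccharide to its receptors (90.1 against 21.8 CPM and 125 against 39.1 CPM), and Irak3 were higher. These lists include genes induced by tissue dissociation, such as Fos, which was 4984 against 6123 CPM in ff and 4180 against 5895 CPM in GF.

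**Figure D3:**
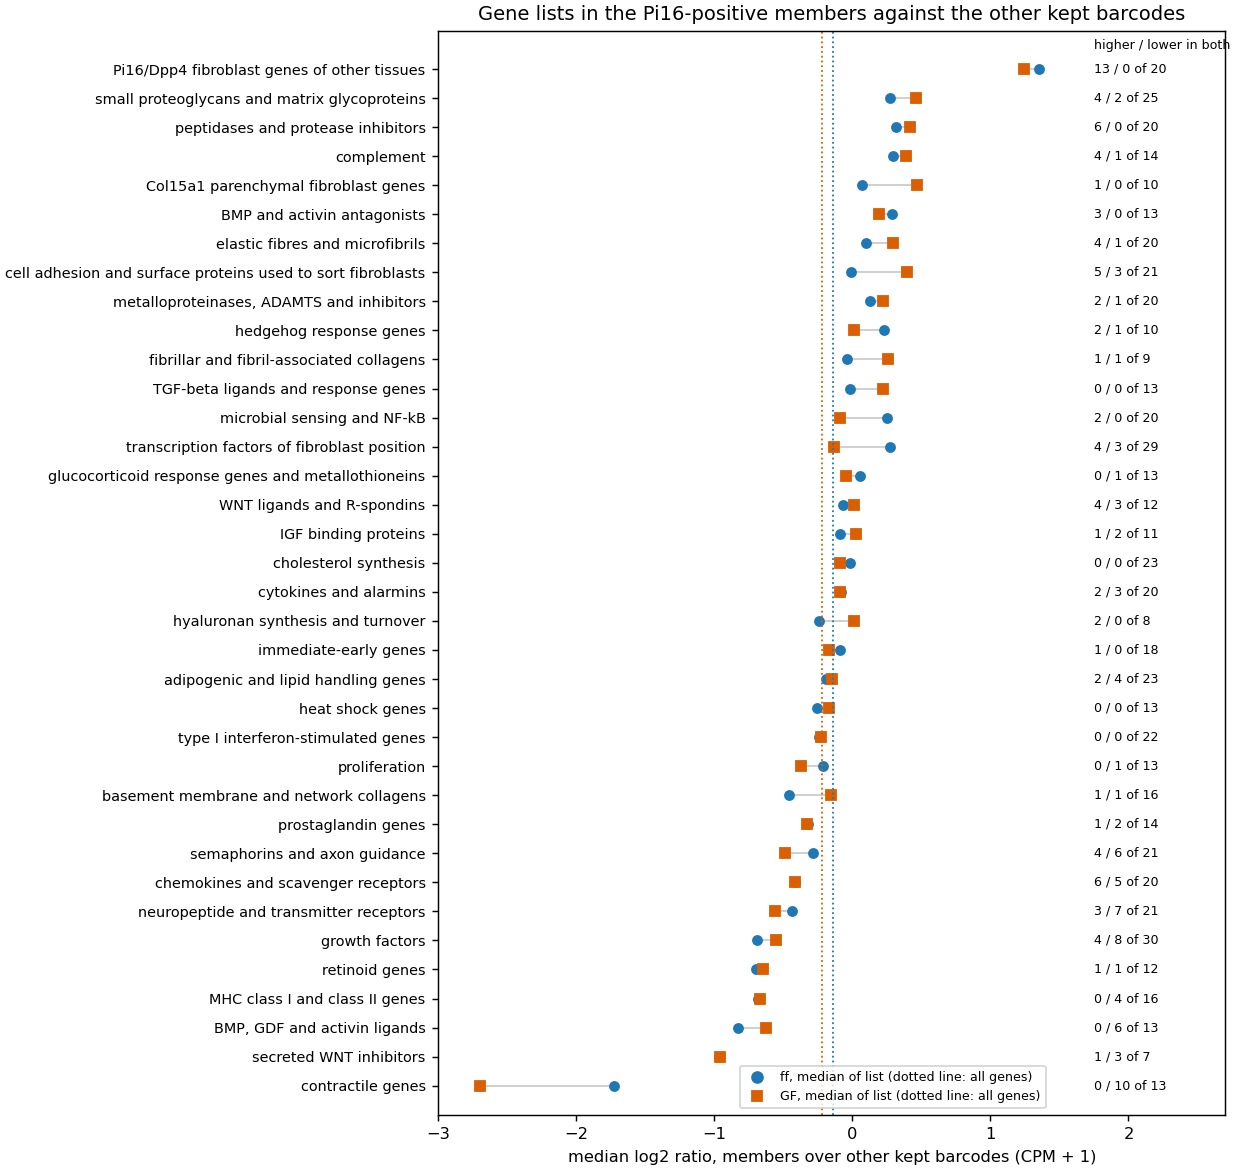
Median log2 ratio of members over the other kept barcodes for each gene list, with a circle for ff and a square for GF. Dotted lines are the medians over all genes (-0.14 and -0.22), and the numbers at the right count genes at least 2-fold higher and lower in both libraries. Genes of Pi16/Dpp4 fibroblasts in other tissues lie farthest to the right and contractile genes farthest to the left.

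The lowest ratios belonged in large part to leukocyte genes. Cd74, the invariant chain of MHC class II, was 4.37 CPM in ff members against 120 CPM outside and 17.7 against 534 CPM in GF. H2-Aa, H2-Ab1, H2-Eb1, Cd52, Lyz2 and Il1b were likewise low, and Ptprc was 0 by the rule. Against only collagen-bearing barcodes without Ptprc the log2 ratios of Cd74 were -0.78 and -0.08. Against those barcodes Acta2 kept -2.81 and -2.93, Tspan13, a tetraspanin, -2.76 and -2.55, and Cxcl12 -1.52 and -1.19.

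RNA of other cell types was present at low level in the members. Summed over their marker lists, lymphatic endothelial genes were 16.8 CPM in ff members and 10.9 CPM in GF members, blood endothelial genes 8.49 and 26.2, macrophage or dendritic genes 7.47 and 8.75, T or innate lymphoid genes 0.356 and 6.19, and erythrocyte genes 68.8 and 41.0 CPM. B or plasma cell genes summed to 55.6 CPM for ff against 5.58 for GF, and Jchain, the joining chain of secreted antibody, gave 53.8 CPM of the ff sum against 1.32 CPM in GF, and in ff members with fewer than 2 Adamdec1 UMIs it was 6.20 CPM. Msln and Lrrn4 of the mesothelium, Cidec of adipocytes and Sox10 of glia had no UMI in members of either library, where 3 counts set floors of 0.152 (ff) and 0.0924 CPM (GF). Wt1, also a mesothelial gene, was 11.3 CPM in ff members against 2.57 CPM outside and 13.6 against 3.17 CPM in GF.

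Lamina propria RNA was larger. Adamdec1, a metalloproteinase-like gene that marks lamina propria fibroblasts, was 516 CPM in ff members against 2966 CPM outside and 853 against 4002 CPM in GF. Members with at least 10 Adamdec1 UMIs numbered 8.38% in ff and 12.3% in GF, and their median depths of 16188 and 10285 UMIs were above those of all members. Scrublet, a doublet caller, marked 8.73% of ff and 7.28% of GF members, against 3.40% and 4.30% of the other kept barcodes; these were kept. Without members of 2 or more Adamdec1 UMIs, an option chosen after seeing the data, 402 genes were higher and 1241 lower in ff, and 369 and 1587 in GF. The levels of Foxl1, Wif1, Kitl, Hgf, Ncam1 and Tspan13 were also over 1.5 times lower in the members then left, with Foxl1 at 0.591 and 0.480 CPM. Members were left out by a lamina propria gene, so lower levels of genes that go with it are part of that choice. All values given for members with fewer than 2 Adamdec1 UMIs are therefore description and test nothing.

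The members were not uniform, and the number of Pi16 UMIs ordered several genes that the rule did not use. From just outside the rule (1 Pi16 UMI) through members with 2, 3 to 4, 5 to 9 and at least 10, Npy1r was 13.8, 32.8, 58.7, 59.5 and 148 CPM in ff and 17.9, 36.1, 53.8, 101 and 181 CPM in GF. Dpp4 was 8.29, 19.0, 35.0, 46.6 and 57.4 CPM in ff and 8.78, 17.9, 30.9, 49.3 and 63.1 CPM in GF. Both thus increased over the steps, although the intervals of Npy1r in ff at 3 to 4 and 5 to 9 Pi16 UMIs overlapped. Cilp did so only in GF, from 89.4 CPM outside to 373 CPM at 10 or more, while within ff members it lay between 304 and 317 CPM. Every step, also that outside the rule, required at least as many Pi16 UMIs as of Efhd1, Ackr2 and Ildr2 together. Barcodes with many UMIs of these genes could thus enter only the higher steps. The part of this requirement in the orders was not tested.

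Lamina propria genes ran the other way. Adamdec1 was 2042, 756, 658, 477 and 388 CPM over these steps in ff and 2533, 1822, 1047, 750 and 426 CPM in GF. Cxcl12 was 913, 592, 513, 370 and 278 CPM in ff and 1280, 986, 800, 529 and 291 CPM in GF, so at 10 or more Pi16 UMIs the libraries came close. Median depth also differed between steps, from 8213 UMIs at 2 Pi16 UMIs to 10570 at 10 or more in ff and from 6195 to 9363 in GF, and its part in these orders was not tested.

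Between members with at least 10 and those with 2 Pi16 UMIs, 59 of 7739 genes (0.762%) were at least 2-fold higher and 93 (1.20%) lower in both libraries. Gap43, a growth cone protein of neurons, led with 51.0 against 3.35 CPM in ff and 30.7 against 1.61 CPM in GF. Npy1r, Islr2, Adgrg2 (an adhesion G protein-coupled receptor), Wnt10b and Krtdap also leaned to high Pi16, under the same requirement on Efhd1, Ackr2 and Ildr2. Edil3, Hapln1 (a hyaluronan link protein), Wnt4, Grem1 and Ncam1 were among the lowest, and Edil3 was 25.5 against 114 CPM in ff and 17.3 against 149 CPM in GF.

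**Figure D4:**
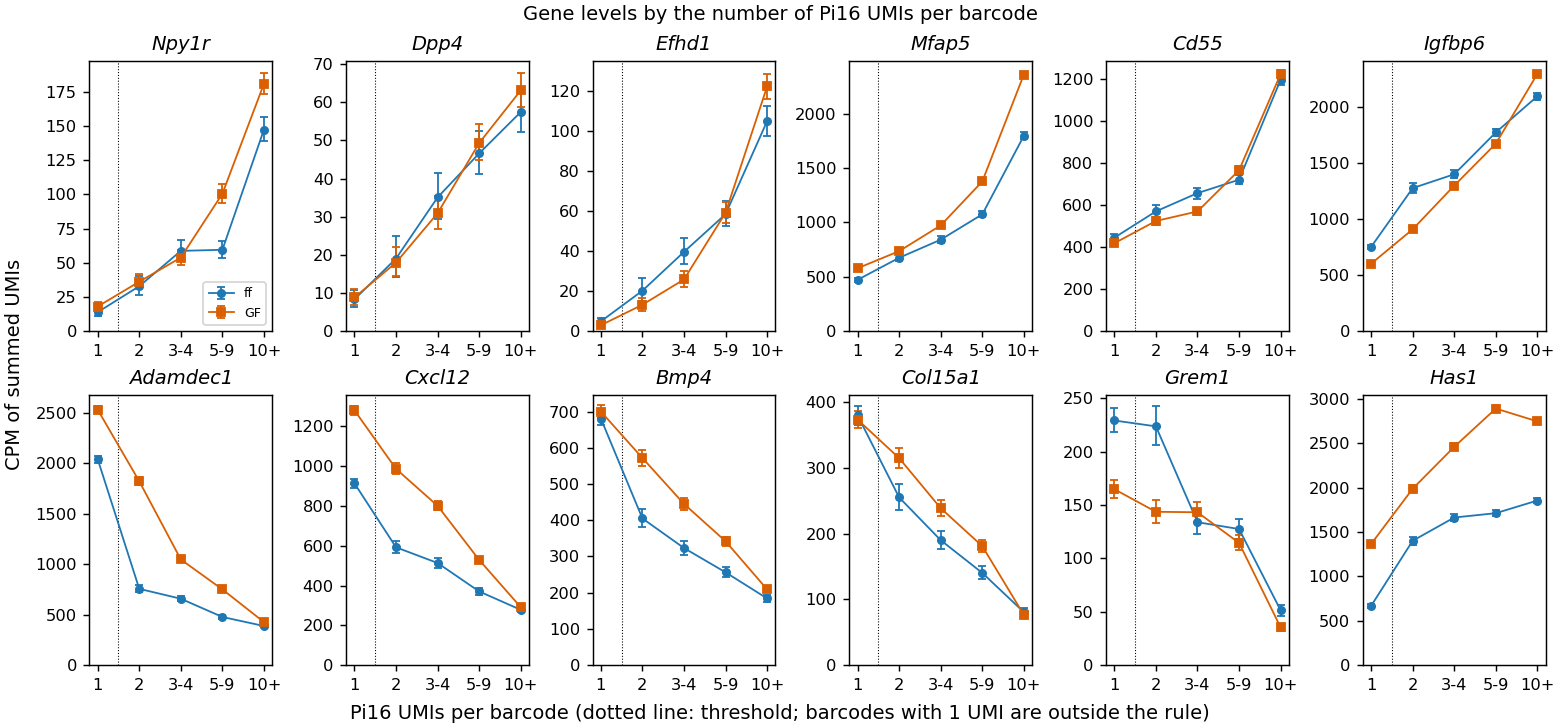
CPM of 12 genes (y axes start at 0) by the number of Pi16 UMIs per barcode, in ff (circles) and GF (squares), with exact Poisson intervals; the dotted line separates barcodes with 1 Pi16 UMI, outside the rule. Npy1r, Dpp4, Mfap5, Cd55 and Igfbp6 increase with Pi16 in both libraries, and Adamdec1, Cxcl12, Bmp4, Grem1 and Col15a1 decrease; Efhd1 is part of the rule.

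Some genes were held by few members. In barcodes thinned to 2000 UMIs, Ctla2a, a cathepsin inhibitor-like protein, was found in 0.559% of ff and 1.37% of GF members (35.8 CPM in ff members, 4.06 CPM in those with fewer than 2 Adamdec1 UMIs), and Apod, apolipoprotein D of perineural and adventitial fibroblasts, in 7.26% and 10.4%. Tac1 was found in 2.64% of ff and 5.01% of GF members and Myoc in 6.30% and 3.15%. Ccl2 was found in 42.0% and 31.5%, and the 10% of members with most of it held 60.6% and 73.9% of its thinned UMIs. For Adamdec1 the top 10% held 84.7% and 85.5%. Gsn, the actin-severing protein gelsolin, was by contrast found in 100% and 99.9%.

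The nearest group, the Efhd1/Ackr2/Ildr2-positive barcodes, was close to the members in most genes. These 279 ff and 309 GF barcodes held at least 2 UMIs of Efhd1, Ackr2 and Ildr2 together and more than of Pi16, not each of these genes. Among them, 60 ff and 169 GF barcodes had 2 or more Pi16 UMIs and were kept from the members only by that requirement. At least 1 Pi16 UMI was found in 45.2% and 76.4% of this group. The rule thus divided Pi16-bearing barcodes between both sets, unequally per library, and its part in the closeness was not tested. Of 11142 genes, 77 (0.691%) were higher and 89 (0.799%) lower in ff members, and 242 (2.17%) and 156 (1.40%) in GF members, with 29 (0.260%) higher and 28 (0.251%) lower in both. Apod was 67.5 CPM in ff members against 18.8 CPM and 133 against 34.8 CPM in GF, and Fgf9, Dner, Hoxd13, Angptl7 and Egflam were also higher in the members. Bean1 was 5.08 against 1.42 CPM and 3.88 against 0.967 CPM, but 0.591 and 0.436 CPM in members with fewer than 2 Adamdec1 UMIs. Lower were Ccl21a (5.13 against 373 CPM and 4.22 against 128 CPM), Mmrn1 and Lyve1, all genes of lymphatic endothelium, Rgs5 of pericytes and Des, the muscle filament desmin (22.7 against 58.9 CPM and 37.8 against 193 CPM). Summed lymphatic markers were 619 CPM in the Efhd1/Ackr2/Ildr2-positive barcodes of ff and 242 CPM in those of GF, and their part in these ratios was not tested. With barcodes thinned before the rule, 382 genes were higher and 189 lower in ff, and the direction of these 3 genes turned in GF, to log2 ratios of 1.83 for Ccl21a, 0.55 for Mmrn1 and 0.76 for Lyve1.

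The second neighbour, 88 ff and 26 GF barcodes positive for Angptl1 and Ackr4 and like submucosal trophocytes, was small. Of 10962 genes, 474 (4.32%) were higher and 289 (2.64%) lower in ff members, and 1904 (17.4%) and 923 (8.42%) in GF members, the latter on 26 barcodes; 225 (2.05%) were higher and 110 (1.0%) lower in both. The ff counts were 1290 and 478 with barcodes thinned before the rule, and 64 and 42 among genes with at least 500 UMIs. Grem1 was 113 CPM in ff members against 1609 CPM there and 95.02 against 828 CPM in GF. C1qtnf3, Hmcn2, Spon2 and Fmo2 were lower in members as well. Krtdap, Gap43 and Sema3e had no UMI in these barcodes in either library, where 3 counts amount to 3.49 (ff) and 13.96 CPM (GF), so for Gap43 and Sema3e in GF the floor was close to the members' 14.5 and 14.3 CPM.

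Between libraries, 199 of 12435 genes (1.60%) were at least 2-fold higher and 234 (1.88%) lower in GF than in ff members; in the other kept barcodes 235 (1.89%) were higher and 178 (1.43%) lower. The median ratio was 0.00 in members and 0.07 in the others. Strain, germ-free status and library cannot be told apart in any of these values. The 20 genes named by the largest ratios in members were all at least 2-fold apart, in the same direction, in the other kept barcodes too.

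Ifi202b, an interferon-inducible DNA sensor known to vary between mouse strains, was 0.0508 CPM (1 UMI) in ff members and 131 CPM in GF members, a ratio of 2570 with a counting interval from 461 to 101515, and 0.122 and 36.1 CPM in the others. No UMI of the guanylate-binding protein gene Gbp2b lay in ff members, and in GF members it was 45.0 CPM, at least 295-fold higher, while its paralog Gbp2 was 54.5 and 52.4 CPM. C1rb was 0.305 and 143 CPM and its near copy C1ra 373 and 161 CPM. C1s2 was 0.458 and 124 CPM, and its near copy C1s1 720 and 496 CPM, and Tpm3-rs7 was 2.69 and 190 CPM where Tpm3 was 326 and 153 CPM. How the counting divides reads between such copies is uncertain.

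Genes without such a copy also differed. Ucp2, a mitochondrial carrier, was 7.12 CPM in ff members (5.99 to 8.40) and 108 CPM in GF members (104 to 112), against 29.96 and 139 CPM in the others, or log2 ratios of 3.75 and 2.18. Lrat, which esterifies retinol, was 0.356 and 16.2 CPM in members and 1.26 and 44.2 CPM in the others, and 7.29 CPM in GF members with fewer than 2 Adamdec1 UMIs. Duoxa1 and Duox1, the maturation factor and the enzyme of a hydrogen peroxide-forming oxidase, were 0.458 CPM each in ff members and 12.3 and 7.30 CPM in GF members. Alpl, alkaline phosphatase, was 11.2 and 47.2 CPM in members and 24.3 and 29.9 CPM in the others, or log2 ratios of 1.98 and 0.29; the difference of these ratios was not tested. Fgfbp1, a carrier of fibroblast growth factors, had no UMI in ff members and 7.12 CPM in GF members (at least 46.7-fold higher), against 0.294 and 74.8 CPM in the others. In GF members it was 23.8 CPM with 2 or more Adamdec1 UMIs and 0.175 CPM with fewer. Arhgdib, a GTPase regulator of blood cells, was 3.41 and 2.16 CPM in members and 6.61 and 46.8 CPM in the others, and Cd28, Cd79a, Ralgps2 and Limd2 likewise had GF to ff ratios below those of the other kept barcodes, which held more lymphocyte barcodes in GF.

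In the other direction, Stmn2, a microtubule regulator of neurons, was 81.1 CPM in ff members and 4.65 CPM in GF members (303 and 15.9 CPM in the others, 31.1 and 1.48 CPM in members with fewer than 2 Adamdec1 UMIs). Mpp7, a scaffold of cell junctions, was 65.1 and 2.53 CPM, and Pttg1, securin, 73.6 and 7.80 CPM. Trim12a was 19.5 and 0.0308 CPM (1 UMI, a ratio of 633, interval 113 to 25086) where its relative Trim12c was 12.6 and 20.7 CPM. Pnp2 was 12.6 and 0.339 CPM beside Pnp at 760 and 435 CPM. Slc15a2, a peptide transporter, and Trim30d had no UMI in GF members and were at least 84.7-fold and 80.8-fold lower there. Rab6b, Best1 (2 UMIs in GF) and Defb50 (1 UMI in GF) were lower too.

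Most fixed lists held few genes past 2-fold between the libraries. Of 15 MHC genes 6 were higher in GF members, against 1.60% of all genes, and H2-D1 was 673 CPM in ff members against 1424 in GF members (770 and 1715 CPM in the others); MHC genes are polymorphic between these strains. Of 20 Pi16/Dpp4 fibroblast genes 3 were lower, against 1.88% of all genes, and none higher, with a median of -0.08, and of 20 microbial sensing genes 1 was lower and none higher. The 5 markers had no gene past 2-fold in members. Igfbp3, a binding protein of insulin-like growth factors, was 84.6 CPM in ff members and 380 CPM in GF members, against 410 and 1268 CPM in the others, and 34.3 and 123 CPM in members with fewer than 2 Adamdec1 UMIs. Sparcl1, a matrix protein of vessel walls, was 528 and 1512 CPM in members and 532 and 762 CPM in the others.

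**Figure D5:**
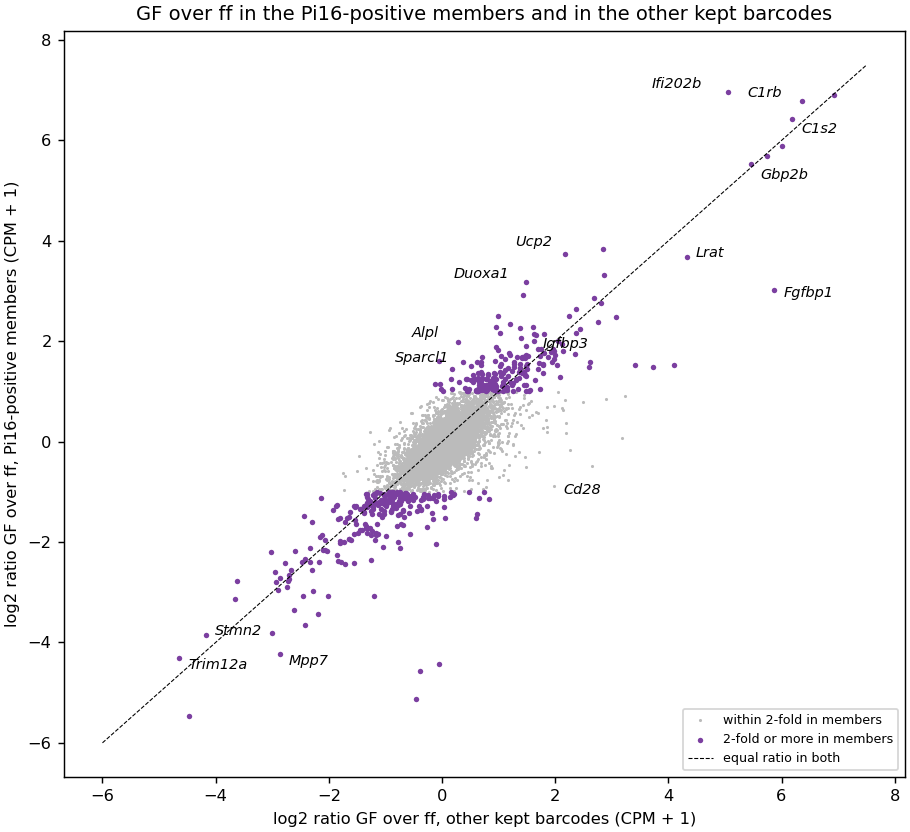
Log2 ratio of GF over ff (CPM + 1) in the other kept barcodes (x axis) and in the Pi16-positive members (y axis), 1 point per gene, for 12435 genes. Purple points are at least 2-fold apart in members (199 higher, 234 lower), and the dashed line marks equal ratios, near which Gbp2b, C1rb and C1s2 lie, while Ucp2 and Ifi202b lie above it and Fgfbp1 below.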

How the data were processed

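Each library was made with 10x Genomics 3' v3.1 chemistry, per the labels, and processed with Cell Ranger 6.0.0 on mm10, per the submitters' processing notes. The authors deposited raw UMI counts per Ensembl gene and barcode, with no normalization. Of 32285 genes, 32158 were matched to symbols. The members and gene lists were chosen with earlier results of these data known.

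Barcodes were filtered and classed as the report states, with no doublet removal. Scrublet (scanpy 1.11.5) served as an alternative. The Efhd1/Ackr2/Ildr2-positive barcodes had no Ptprc, at least 2 UMIs of these genes together and more than of Pi16. The Angptl1/Ackr4-positive barcodes had no Ptprc, at least 2 Angptl1 UMIs, at least 1 of Ackr4, and were in neither other class. Lymphocyte barcodes had Ptprc and at least 2 UMIs of Cd3d, Cd3e, Cd3g, Cd79a and Cd79b together. Collagen-bearing barcodes had no Ptprc and at least 10 UMIs of Col1a1, Col1a2 and Col3a1 together.

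Counts were summed per set and given as CPM. Log2 ratios used a pseudocount of 1 CPM and genes with at least 50 UMIs. CPM intervals are exact Poisson, ratio intervals conditional binomial without pseudocount, and shares Clopper-Pearson, at 95%. For thinned shares, each barcode was drawn down to 2000 UMIs. With 1 library per group no test was made. The calculations were tested on simulated data with known folds. Named were the 20 highest and 10 lowest genes against the other kept barcodes, ranked by the smaller of both libraries' absolute log2 ratios of the same sign with at least 100 UMIs (gene models without a name and mitochondrial, ribosomal, immunoglobulin, haemoglobin and sex-linked genes left out), 8 each way against each neighbouring class, 10 each way between libraries, 6 each way by the difference of ratios, up to 5 genes or those of described role from each list, and the 10 most variable. Genes of the Pi16 steps, copies of named genes and Sparcl1 were chosen after their values were seen. A few list genes are not reported here. Alternatives were stricter cell and Pi16 thresholds, doublets left out, thinning, median-of-ratios scaling, other pseudocounts and minimum counts, mean CPM per barcode and collagen-bearing barcodes only. Leaving out Adamdec1-bearing members and requiring 10 Pi16 UMIs were added after seeing the data. Tools were Python 3.11.15, numpy 2.4.6, scipy 1.17.1, pandas 2.3.3 and matplotlib 3.10.9.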

Additional observations from a re-analysis of the deposited data

Results flagged for a closer look

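Cd28, a costimulatory receptor of T cells, was the 1 gene at least 2-fold apart in opposite directions in the libraries. Its log2 ratio of members over the other kept barcodes was 1.53 in ff (11.2 against 3.23 CPM) and -1.34 in GF (5.58 against 15.7 CPM). The difference between the libraries was not tested. The T-cell gene Cd3e stood at 0.0508 CPM in members of ff against 4.90 in those of GF, and outside them at 0.649 and 13.0 CPM.

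Outside the members, 6 kept ff barcodes and 67 kept GF barcodes held at least 2 Pi16 UMIs together with Ptprc. They made up 0.292% and 1.58% of kept barcodes with 2 or more Pi16 UMIs. Their median depths were 13626.5 and 10596 UMIs. Of the lymphocyte barcodes, 1.19% in ff and 4.56% in GF held 2 or more Pi16 UMIs.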

How the results depend on the processing

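The share of members in ff and GF was 16.9% and 34.2% with stricter cell limits, 13.2% and 21.6% with at least 3 Pi16 UMIs, 8.08% and 14.9% after thinning, and 12.01% and 20.01% without Adamdec1-bearing members. It was 14.9% in ff without doublet calls, 30.4% in GF among collagen-bearing barcodes and 28.1% in GF with Pi16 alone. GF stood above ff in each of these settings. Against the other kept barcodes, 0.1 CPM as pseudocount gave 1586 lower genes in ff and 1754 in GF, and 5 CPM gave 214 higher and 396 lower in ff and 178 and 477 in GF. A minimum of 500 UMIs gave 227 higher and 562 lower in ff and 559 lower in GF. GF against ff members gave 343 higher and 387 lower with 0.1 CPM, 78 and 90 with 5 CPM, 91 and 76 with 500 UMIs, and 136 lower after thinning.

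Against Efhd1/Ackr2/Ildr2-positive barcodes, higher and lower counts in ff were 382 and 189 after thinning, 145 and 140 with 0.1 CPM, 20 and 43 with 5 CPM, 123 and 356 with 1 UMI, and 15 and 8 with 500 UMIs, with 137 lower by mean CPM per barcode. In GF they were 70 and 99 with 5 CPM and 64 and 54 with 500 UMIs, with 412 higher with 0.1 CPM and 323 lower with 1 UMI. Against Angptl1/Ackr4-positive barcodes, ff gave 1290 and 478 after thinning, 113 and 123 with 5 CPM, 858 and 755 with 1 UMI, and 64 and 42 with 500 UMIs. GF gave 982 and 518 with 5 CPM and 445 and 148 with 500 UMIs, with 1612 lower with 1 UMI. Other pseudocounts and minimums change counts by their construction; the cause of the other shifts was not tested.

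Among single genes and list medians, 2449 values moved by less than their counting interval, 576 moved more and 3 reversed. The reversals were in GF against Efhd1/Ackr2/Ildr2-positive barcodes after thinning, with log2 ratios of 1.83 for Ccl21a, 0.55 for Mmrn1 and 0.76 for Lyve1. The small number of GF barcodes in the Angptl1/Ackr4 class, 26, limits its values. No paired analysis was possible because each group has 1 library.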
